A study of Mus musculus with 12 samples.

Results

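The genes described here are the splicing factors of the hnRNP and SR families in N9 cells, an established mouse microglial line. They were taken from the count table by name: every protein-coding gene whose symbol begins with Hnrnp or is Srsf followed by a number, together with Tra2a, Tra2b, Clk1 to Clk4, Son and Srrm2. This rule found 39 of 54532 genes: 20 hnRNP genes, 11 SR genes, 2 Tra2 genes, 4 CLK kinases and the 2 speckle scaffolds Son and Srrm2. The study compared RNA from 12 libraries in 4 groups of 3. In the control group, cells were kept for 18 h in a glucose-free DMEM to which dialysed serum, 3 mM glucose and 5 mM fructose had been added. In the control group with LPS, the same medium was followed by 6 h with lipopolysaccharide (LPS, a bacterial cell wall component that activates microglia) at 1 µg/ml. The high-glucose and high-fructose groups received LPS in the same way after 18 h in the control medium with glucose or fructose at 15 mM. The sources used here do not say whether 15 mM is the final or the added concentration. They also do not say whether the control group was kept for the further 6 h. If it was not, culture time differs together with LPS, and the 2 cannot be told apart. Both sugar groups carried LPS, so the sugars are compared only in LPS-treated cells. The labels do not say that the libraries came from separate cultures, and their spread, on which every p-value rests, may therefore be technical only.

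SR proteins carry a domain rich in arginine and serine, bind exonic enhancer sequences and recruit the splicing machinery to nearby splice sites. The hnRNPs coat nascent transcripts and often act against SR proteins at the same exons. The CLK kinases phosphorylate the arginine-serine domain in the nucleus, and Son and Srrm2 form the core of nuclear speckles, where splicing factors are stored. Many genes of both families limit their own level by splicing in an exon or keeping an intron that sends the transcript to nonsense-mediated decay. Annotated transcripts of that kind were common here: 27 of the 38 members with a tested level (71.1%) had at least 1 in the GENCODE M21 annotation, against 29.7% of all tested protein-coding genes. Transcripts with a retained intron were annotated for 78.9% of members and 60.4% of tested protein-coding genes. Members also had more annotated transcripts, with a median of 9 against 5. The files give 1 count per gene, so no transcript form was measured.

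Libraries held 15453776 to 17956772 counts. Levels are counts relative to library size (CPM, with edgeR's TMM scaling factors), and changes are log2 fold changes ± SE from edgeR's quasi-likelihood test over all 12 libraries, called at a Benjamini-Hochberg adjusted p below 0.05. Microglial markers were present, with 10 of 12 listed genes tested and a summed level of 1962 to 2228 CPM. Lists for other cell types had summed levels of 25.9 to 51.4 CPM (neuron), 93.9 to 117 CPM (astrocyte), 27.4 to 39.1 CPM (oligodendrocyte), 0.335 to 2.61 CPM (endothelial) and 0.239 to 19.7 CPM (fibroblast), and Olig2, Sox10 and Cldn5 had no count in any library. Of the 5 genes in each of these lists, 2 neuron, 2 astrocyte, 1 oligodendrocyte, 2 endothelial and 4 fibroblast genes were tested. The samples came from 1 microglial line, so the sums are levels of the listed genes and do not count cell types. In bulk samples, fewer cells of a type and less RNA per cell cannot be told apart.

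The members were mostly abundant. Together they took 1.12 ± 0.027% of all counts in control medium, 1.06 ± 0.016% with LPS, 1.14 ± 0.025% with high glucose and LPS and 1.04 ± 0.027% with high fructose and LPS (SD, n = 3 in each group). The 3 high-glucose libraries, at 1.12 to 1.17%, lay above the 3 LPS libraries in control medium, at 1.05 to 1.08%, and above the 3 high-fructose libraries, at 1.02 to 1.07%. They overlapped the 3 control libraries without LPS. All these shares are of raw counts, without the TMM factors. The hnRNP genes alone took 0.793 ± 0.032% in control medium and 0.740 ± 0.0082% with LPS. They took 0.812 ± 0.021% with high glucose and LPS and 0.736 ± 0.025% with high fructose and LPS. Control and high-glucose libraries overlapped here too, at 0.773 to 0.830% and 0.792 to 0.834%. Per length, in the authors' FPKM, Hnrnpab stood highest at 399.6 ± 34.8 FPKM in control medium, followed by Hnrnpa1 at 179.6 ± 11.4, Hnrnpa0 at 153 ± 9.04 and Hnrnpa2b1 at 144 ± 6.03 FPKM. The order of genes in FPKM depends on the length used. Counted lengths were 6584 bases for Hnrnpa2b1 and 3153 for Hnrnpa1, against 1728 and 1918 in their main coding transcripts. In the 3 control libraries Hnrnpa0 stood at 163, 145 and 151 FPKM and Hnrnpa2b1 at 151, 140 and 142, and this difference was not tested. The highest SR gene was Srsf2 at 114 ± 3.17 FPKM and the lowest of those tested was Srsf4 at 5.06 ± 0.409 FPKM. The 4 CLK kinases lay at 2.86 ± 0.0678 (Clk4) to 5.16 ± 0.445 FPKM (Clk2) in control medium. Srsf12 had 0 or 1 count in each library and was not tested, which leaves 38 members among 12766 tested genes.

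**Figure D1:**
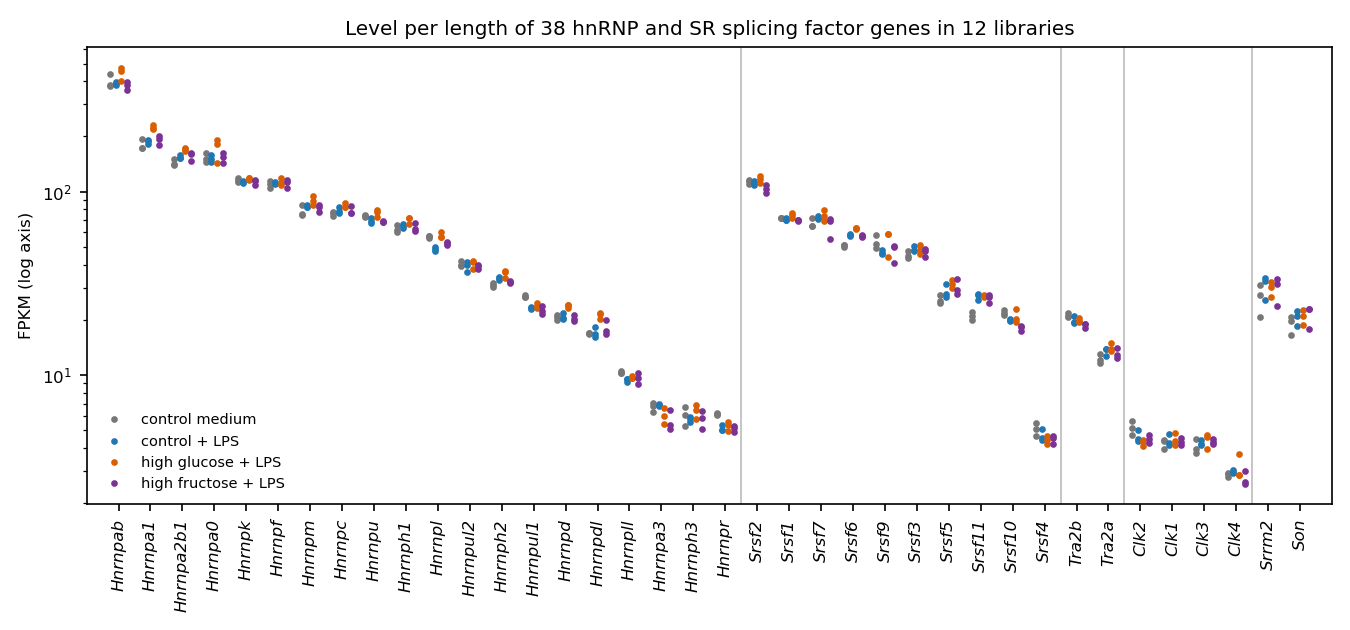
FPKM (log axis) of the 38 tested members, ordered within families by their median, with 1 point per library and 1 colour per group. Hnrnpab is highest near 399.6 FPKM, and Srsf4 and the CLK kinases lie near or below 5 FPKM in most libraries.

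The median coefficient of variation between libraries of a group was 4.39% for members and 7.45% for all genes tested. Levels differ between these sets, and against the genes nearest to each in level, 21 of the 38 members varied more than most of those genes. Srrm2 was highest at 15.2%, followed by Son at 11.0%, Srsf9 at 9.63%, Hnrnph3 at 8.94% and Hnrnpa0 at 8.10%.

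Several members share sequence with other genes, which bears on what their counts mean. Against the GENCODE M21 transcripts, 6 members had copies or overlapping genes over at least 50% of a transcript at 98% identity: Hnrnpa1, Hnrnpa3, Hnrnpf, Hnrnpk, Srsf4 and Srsf5. Their values are uncertain, since reads could be assigned to either gene. Srsf3 lay just under that limit at 49.54%. Srsf4 is overlapped on the other strand by Gm12992. The sources used here do not give the strand setting of the counting, so reads of Hnrnpab and Phykpl (29.08% of exonic bases shared on opposite strands), of Hnrnpf with 4933440N22Rik and Gm43863 (26.45%), of Srsf2 and its neighbours Mettl23 and Mfsd11 (25.29%), of Clk3 and Edc3 (15.2%), of Hnrnpu and Cox20 (6.93%), of Hnrnpd and Gm17092 (5.24%) and of Hnrnpk and Rmi1 (5.1%) cannot be told apart in those stretches. Hnrnpm shares 14.69% of its exonic bases with March2 on the same strand. Smaller overlaps of other members were at most 5.06%.

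Hnrnpa3 is the clearest case and was singled out after its values were seen. Gm6793, a copy annotated as protein-coding, aligned to it over 1446 of 1654 transcript bases at 98.27% identity. The same 90 bases of the coding sequence of Hnrnpa3 (transcript bases 304 to 393) and of Gm6793 (bases 209 to 298) are printed to show how few letters separate them, with the 3 differing bases in capitals, both from GENCODE M21.
Hnrnpa3: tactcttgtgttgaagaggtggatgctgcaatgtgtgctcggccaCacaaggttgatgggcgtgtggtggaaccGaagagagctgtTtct
Gm6793: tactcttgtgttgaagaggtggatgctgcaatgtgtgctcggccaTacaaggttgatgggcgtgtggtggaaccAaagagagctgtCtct
Over the 12 libraries, 6853 counts were assigned to Hnrnpa3 and 38978 to Gm6793, and the pseudogenes Gm12960, Gm5641 and Gm11847 had 13611, 9233 and 6904. Hnrnpa3 itself stood at 34.3, 38.3 and 36.8 CPM in control medium, 37.6, 36.5 and 37.1 with LPS, 32.4, 36.1 and 29.5 with high glucose and LPS, and 27.4, 35.3 and 29.1 with high fructose and LPS. The 3 LPS libraries in control medium lay above both sugar groups. Its difference was -0.18 ± 0.093 (SE, adjusted p = 0.409) with high glucose and -0.28 ± 0.094 (SE, adjusted p = 0.122) with high fructose, and neither passed in edgeR's test. Gm6793 differed by 0.13 ± 0.10 (SE, adjusted p = 0.613, edgeR) with high glucose and -0.029 ± 0.10 (adjusted p = 0.941) with high fructose.

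**Figure D2:**
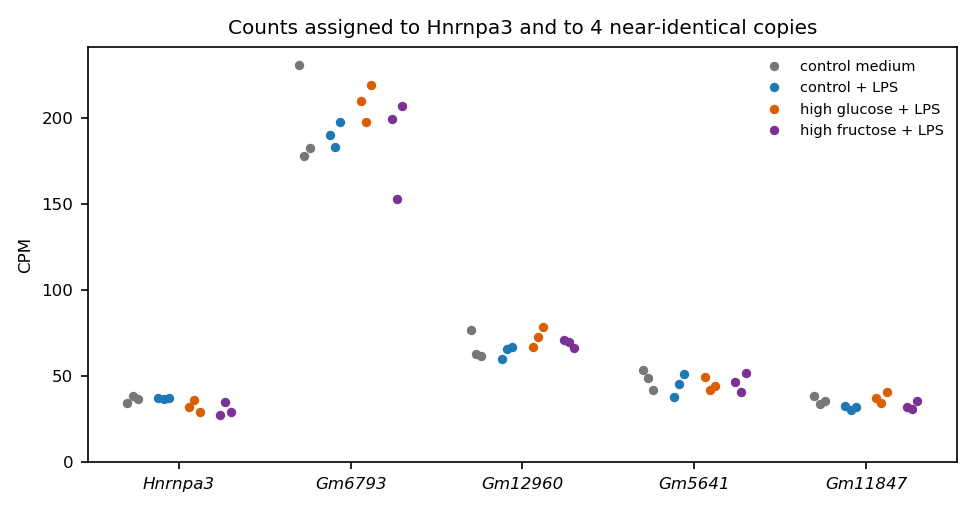
CPM in each library (points, 1 colour per group) for Hnrnpa3 and 4 near-identical copies. Gm6793 lies between 153 and 231 CPM and Hnrnpa3 between 27.4 and 38.3 CPM.

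LPS in control medium moved 6 of the 38 members. Srsf11 and Srsf6 rose, and Hnrnpl, Hnrnpr, Hnrnpul1 and Hnrnpll fell, the largest change being 1.28-fold. The share called was below that of all genes: 28.8% of tested genes were called, 15.2% higher and 13.6% lower. All 4 members that fell were hnRNPs and both that rose were SR proteins. The families as a whole did not split that way. Of the 20 hnRNPs 10 lay above 0 and 10 below, and of the 10 tested SR genes 5 lay above and 5 below. The median change was 0.017 over members and -0.0040 over all genes tested.

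Srsf11 (ENSMUSG00000055436, chromosome 3, 158010473 to 158036639, minus strand) encodes an SR-related protein that contacts both U2AF and the U1 particle. It stood at 169.5, 187 and 179 CPM in control medium, 231, 219 and 235 with LPS, 227, 229 and 234 with high glucose and LPS, and 209, 227 and 232 with high fructose and LPS. The 3 control libraries lay below all 9 libraries with LPS. The change with LPS was 0.36 ± 0.052 (SE, adjusted p = 3.78e-05), and under LPS it was 0.012 ± 0.052 with high glucose and -0.034 ± 0.052 with high fructose. Srsf6 (ENSMUSG00000016921, chromosome 2, 162931528 to 162937121, plus strand), an exonic enhancer-binding SR protein, stood at 243, 248 and 249 CPM in control medium, 285, 278 and 283 with LPS, 308, 306 and 304 with high glucose and LPS, and 279, 273 and 283 with high fructose and LPS. Its LPS and control libraries did not overlap, and it rose by 0.19 ± 0.040 (SE, adjusted p = 0.00118) on the log2 scale. With library totals alone as the scaling, that rise was 0.10 with an adjusted p of 0.0539.

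Among the genes that fell, Hnrnpl (ENSMUSG00000015165, chromosome 7, 28808541 to 28822266, plus strand) encodes a CA-repeat-binding regulator, and Hnrnpll is its paralog, known for the control of Ptprc (CD45) exons in lymphocytes. Hnrnpl stood at 335, 344 and 342 CPM in control medium, 291, 299 and 283 with LPS, 338, 339 and 363 with high glucose and LPS, and 320.4, 314 and 305 with high fructose and LPS. LPS lowered it in control medium, by -0.23 ± 0.044 (SE, adjusted p = 0.000655), with no overlap between the groups. Hnrnpll (ENSMUSG00000024095, chromosome 17, 80029487 to 80062334, minus strand) stood at 121, 120.3 and 124 CPM in control medium, 107, 112 and 112 with LPS, 113, 114 and 116 with high glucose and LPS, and 120.0, 106 and 114 with high fructose and LPS. Its change of -0.14 ± 0.051 (SE, adjusted p = 0.0467) lost its call without any 1 of the 6 libraries compared, with adjusted p between 0.0722 and 0.161, and also with no filter on low counts (0.123) and with limma (0.0782 on log2(FPKM + 1) and 0.0771 on log2(FPKM + 0.1)). Hnrnpr (ENSMUSG00000066037, chromosome 4, 136310942 to 136359447, plus strand), an RNA-binding protein also found on transported mRNAs, stood at 138, 137 and 136 CPM in control medium, 119, 112 and 112 with LPS, 110.1, 119.8 and 124 with high glucose and LPS, and 109, 115 and 117 with high fructose and LPS. The 3 control libraries lay above all 9 with LPS, and the change was -0.26 ± 0.053 (SE, adjusted p = 0.00108). Hnrnpul1 (ENSMUSG00000040725, chromosome 7, 25721165 to 25754757, minus strand), a relative of Hnrnpu, stood at 238, 232 and 233 CPM in control medium, 199, 204 and 202 with LPS, 207, 201 and 215 with high glucose and LPS, and 188, 207 and 195 with high fructose and LPS. Its control libraries also lay above all 9 others, and it changed by -0.21 ± 0.047 (SE, adjusted p = 0.00189).

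The split of the 38 members into values above and below 0 under LPS moved with the scaling, which shifts all genes alike. With TMM, 21 members lay above 0 and 17 below. With upper-quartile factors it was 17 and 21, with 2 members called higher and 7 lower. With library totals alone it was 11 and 27, with 1 called higher and 11 lower. Library totals alone moved the median of all genes by -0.090, and that of members from 0.017 to -0.073. Summed microglial markers were 1962 to 2032 CPM in control medium and 2180 to 2228 CPM with LPS, oligodendrocyte markers 33.0 to 39.1 and 27.4 to 28.9 CPM, and endothelial markers 0.335 to 0.904 and 1.61 to 2.27 CPM. Of the 10 tested microglial genes, 3 were called higher and 1 lower with LPS, with log2 changes from -1.63 to 0.58. The part of these lists in the results with LPS was not tested.

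**Figure D3:**
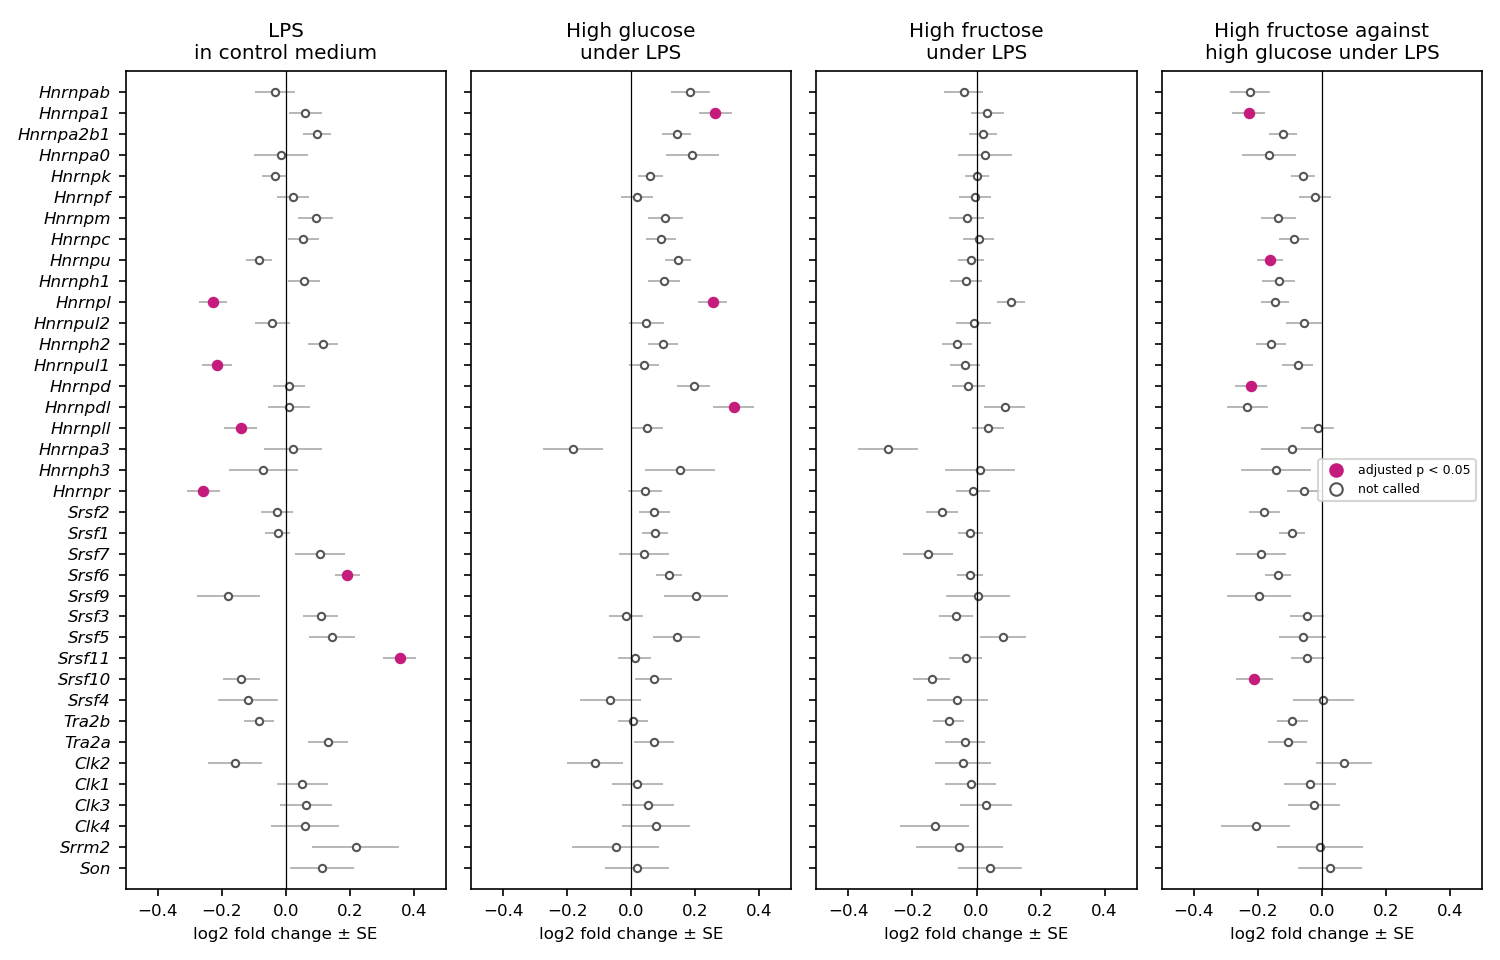
Log2 fold change ± SE (bars) of the 38 members in the 4 comparisons, with filled points for an adjusted p below 0.05. With high glucose 33 points lie above 0, and between high fructose and high glucose 35 lie below 0.

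High glucose under LPS raised Hnrnpl, Hnrnpa1 and Hnrnpdl and lowered no member. That was 3 of 38 members, where 1.56% of all tested genes were called in either direction and 0.587% were called higher. Of the 38 members, 33 lay above 0, and so did 19 of the 20 hnRNPs, against 50.9% of all genes. The median change was 0.072 over members, 0.10 over hnRNPs and 0.0027 over all genes. A further 7 members had an unadjusted p below 0.05 without passing after adjustment, and all 10 values with such a p lay above 0. Among all genes tested, 13.9% had an unadjusted p below 0.05, 859 above 0 and 921 below.

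Hnrnpa1 (ENSMUSG00000046434, chromosome 15, 103240432 to 103246692, plus strand) encodes an abundant splicing repressor that shuttles between nucleus and cytoplasm. It stood at 611, 546 and 550.4 CPM in control medium, 577, 595 and 611 with LPS, 702, 700.0 and 736 with high glucose and LPS, and 615, 573 and 637 with high fructose and LPS. All 3 high-glucose libraries lay above the other 9, and the change with high glucose was 0.26 ± 0.051 (SE, adjusted p = 0.0133). The pseudogene Gm10052 is identical to 752 coding bases of Hnrnpa1 and moved by 0.29 ± 0.082 (SE, adjusted p = 0.093, edgeR). Hnrnpdl (ENSMUSG00000029328, chromosome 5, 100033577 to 100039664, minus strand), a close relative of Hnrnpd, stood at 82.5, 80.7 and 82.3 CPM in control medium, 77.8, 81.3 and 88.1 with LPS, 98.5, 105 and 105 with high glucose and LPS, and 81.2, 84.8 and 96.9 with high fructose and LPS. Its high-glucose libraries lay above the other 9, and it rose by 0.32 ± 0.064 (SE, adjusted p = 0.0172). Hnrnpl, whose levels are given above, rose by 0.25 ± 0.044 (SE, adjusted p = 0.0065). The LPS libraries in control medium serve both its fall with LPS and this rise, and its group means were 340.3 ± 4.61 CPM in control medium, 291 ± 7.72 with LPS, 347 ± 13.8 with high glucose and LPS and 313 ± 7.52 with high fructose and LPS (SD, n = 3).

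Calls were lost when 1 of several libraries was left out, while the estimates kept their direction. Over the 16 alternatives they ran from 0.24 to 0.28 for Hnrnpa1, 0.22 to 0.27 for Hnrnpl and 0.28 to 0.37 for Hnrnpdl. Hnrnpl alone was called without library 1 or 2 of the control group with LPS, or without high-glucose library 3, and without library 3 of the control group with LPS Hnrnpl lost its call (adjusted p = 0.0526, edgeR). Hnrnpdl also lost its call without high-glucose library 2. With limma, Hnrnpdl lost its call at an adjusted p of 0.0502 on log2(FPKM + 1) and 0.0509 on log2(FPKM + 0.1). Summed microglial markers were 2180 to 2228 CPM with LPS and 1995 to 2096 CPM with high glucose and LPS, and their part in these results was not tested. Of the 10 tested microglial genes, 0 were called higher and 1 lower with high glucose.

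The promoters of the members called with high glucose, and of the 2 SR genes that rose with LPS, are printed because these genes passed the test in those comparisons. Each is the 250 bases before the RefSeq start (GRCm38.p6), in the direction of the gene, with CCAAT and GC boxes (CCAAT and GGGCGG, either strand) in capitals. Hnrnpl lies at chr7:28810640-28810889, plus strand, Hnrnpa1 at chr15:103240147-103240396, plus strand, Hnrnpdl at chr5:100039223-100039472, minus strand, Srsf6 at chr2:162931258-162931507, plus strand, and Srsf11 at chr3:158036607-158036856, minus strand. RefSeq gives Srsf11 a second window at chr3:158031749-158031998, minus strand, and the window at the 5′ end of the gene as counted is the one printed. The windows of Hnrnpl and Hnrnpdl lie inside the genes as counted, whose 5′ ends are at 28808541 and 100039664.
Hnrnpl: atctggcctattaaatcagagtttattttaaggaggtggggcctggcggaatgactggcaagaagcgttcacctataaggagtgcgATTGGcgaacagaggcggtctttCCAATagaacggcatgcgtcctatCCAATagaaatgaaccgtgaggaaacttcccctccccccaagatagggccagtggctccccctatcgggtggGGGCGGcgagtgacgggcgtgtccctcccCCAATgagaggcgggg
Hnrnpa1: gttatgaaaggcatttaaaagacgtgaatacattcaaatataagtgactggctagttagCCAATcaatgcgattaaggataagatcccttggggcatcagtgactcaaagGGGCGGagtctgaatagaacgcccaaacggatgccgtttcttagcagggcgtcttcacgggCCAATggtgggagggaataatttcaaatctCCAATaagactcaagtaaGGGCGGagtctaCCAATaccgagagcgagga
Hnrnpdl: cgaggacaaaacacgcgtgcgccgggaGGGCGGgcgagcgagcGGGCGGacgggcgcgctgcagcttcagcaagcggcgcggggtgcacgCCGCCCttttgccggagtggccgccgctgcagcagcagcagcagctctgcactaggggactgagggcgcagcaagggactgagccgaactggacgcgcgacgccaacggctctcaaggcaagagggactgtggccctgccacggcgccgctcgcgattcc
Srsf6: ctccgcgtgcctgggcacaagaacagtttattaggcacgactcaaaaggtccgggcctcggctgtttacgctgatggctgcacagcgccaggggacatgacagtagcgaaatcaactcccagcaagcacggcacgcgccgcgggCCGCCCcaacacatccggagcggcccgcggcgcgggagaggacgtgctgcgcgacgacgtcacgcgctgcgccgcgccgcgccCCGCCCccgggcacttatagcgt
Srsf11: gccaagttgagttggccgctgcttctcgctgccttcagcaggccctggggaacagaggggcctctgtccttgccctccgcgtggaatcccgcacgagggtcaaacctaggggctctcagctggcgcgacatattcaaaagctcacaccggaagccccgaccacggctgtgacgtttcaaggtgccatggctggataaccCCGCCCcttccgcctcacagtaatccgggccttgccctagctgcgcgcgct
CCAAT occurred in 23 of the 49 windows of the 36 members matched by symbol, and in 33.85% of 32851 windows in the table. GGGCGG occurred in 77.551% of member windows and 32.742% of all windows, and the median GC content was 64.8% and 52.4%. These are matches of letters and no measure of binding.

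High fructose under LPS changed no member past the threshold. In edgeR's test 0 of 38 were called, against 4.91% of all tested genes, with 4 at an unadjusted p below 0.05 (1 above 0 and 3 below; 10.5% of members and 15.5% of all genes), and DESeq2 also called 0. The median was -0.020 over members, -0.0075 over hnRNPs and -0.0013 over all genes. The 4 were Hnrnpl at 0.11 ± 0.044 (SE, adjusted p = 0.228), Hnrnpa3 as given above, Srsf10 at -0.14 ± 0.057 (SE, adjusted p = 0.224) and Srsf2 at -0.11 ± 0.049 (SE, adjusted p = 0.296). Without high-fructose library 2, 1 member, Hnrnpa3, was called lower.

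The direct comparison of the sugars found Hnrnpa1, Hnrnpd, Hnrnpu and Srsf10 lower with high fructose than with high glucose, and no member higher. That was 4 of 38, where 3.72% of all tested genes were called and 1.88% were called lower. All 20 hnRNPs and 35 of 38 members lay below 0. The median was -0.10 over members, -0.14 over hnRNPs and -0.0018 over all genes. The high-glucose libraries serve both this comparison and the previous one with glucose.

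Hnrnpd (ENSMUSG00000000568, chromosome 5, 99955935 to 99978938, minus strand), also called AUF1, binds AU-rich elements and affects mRNA decay as well as splicing. It stood at 157, 153 and 148 CPM in control medium, 148, 151 and 162 with LPS, 171, 178 and 179 with high glucose and LPS, and 150.4, 145 and 157 with high fructose and LPS. High-glucose libraries lay above the other 9, and the difference between the sugars was -0.22 ± 0.050 (SE, adjusted p = 0.0181). Hnrnpa1 differed by -0.23 ± 0.051 (SE, adjusted p = 0.0153). Hnrnpu (ENSMUSG00000039630, chromosome 1, 178321108 to 178337797, minus strand), a nuclear scaffold protein that binds RNA and DNA, stood at 859, 864 and 849.9 CPM in control medium, 789.7, 839 and 802 with LPS, 851, 907 and 933 with high glucose and LPS, and 798, 795 and 811 with high fructose and LPS and differed by -0.16 ± 0.041 (SE, adjusted p = 0.0307). Its high-fructose libraries lay below all 3 of high glucose. Srsf10 (ENSMUSG00000028676, chromosome 4, 135855747 to 135869908, plus strand), an SR protein that turns repressor when dephosphorylated, stood at 153, 159.8 and 149.6 CPM in control medium, 142, 138 and 139.8 with LPS, 142, 161 and 138 with high glucose and LPS, and 130.3, 128 and 122 with high fructose and LPS. Its high-fructose libraries were the lowest of all 12, and it differed from high glucose by -0.21 ± 0.057 (SE, adjusted p = 0.0499). Narrowly missing a call were Srsf2 at -0.18 ± 0.049 (SE, adjusted p = 0.0511), Hnrnpab at -0.23 ± 0.062 (SE, adjusted p = 0.0517) and Hnrnpdl at -0.23 ± 0.064 (SE, adjusted p = 0.055).

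The count of 4 was not stable. It was 0 when only the 6 libraries of the sugar groups were fitted and 0 without high-fructose library 2, 1 without high-glucose library 3, 2 without high-fructose library 1, and 10 with DESeq2. Srsf10 also lost its call with limma, at an adjusted p of 0.0845 on log2(FPKM + 1) and 0.0859 on log2(FPKM + 0.1). Summed neuron markers were 43.1 to 51.4 CPM with high fructose and 28.0 to 32.7 with high glucose, and astrocyte markers were 113 to 117 and 94.9 to 109.7 CPM. In the same order, oligodendrocyte markers were 32.4 to 37.0 and 28.8 to 31.7 CPM, and microglial markers 2122 to 2150 and 1995 to 2096 CPM. Between the sugars, 1 of 2 tested neuron genes was called, and 0 of the tested astrocyte, oligodendrocyte and microglial genes. The part of these lists in the result was not tested.

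**Figure D4:**
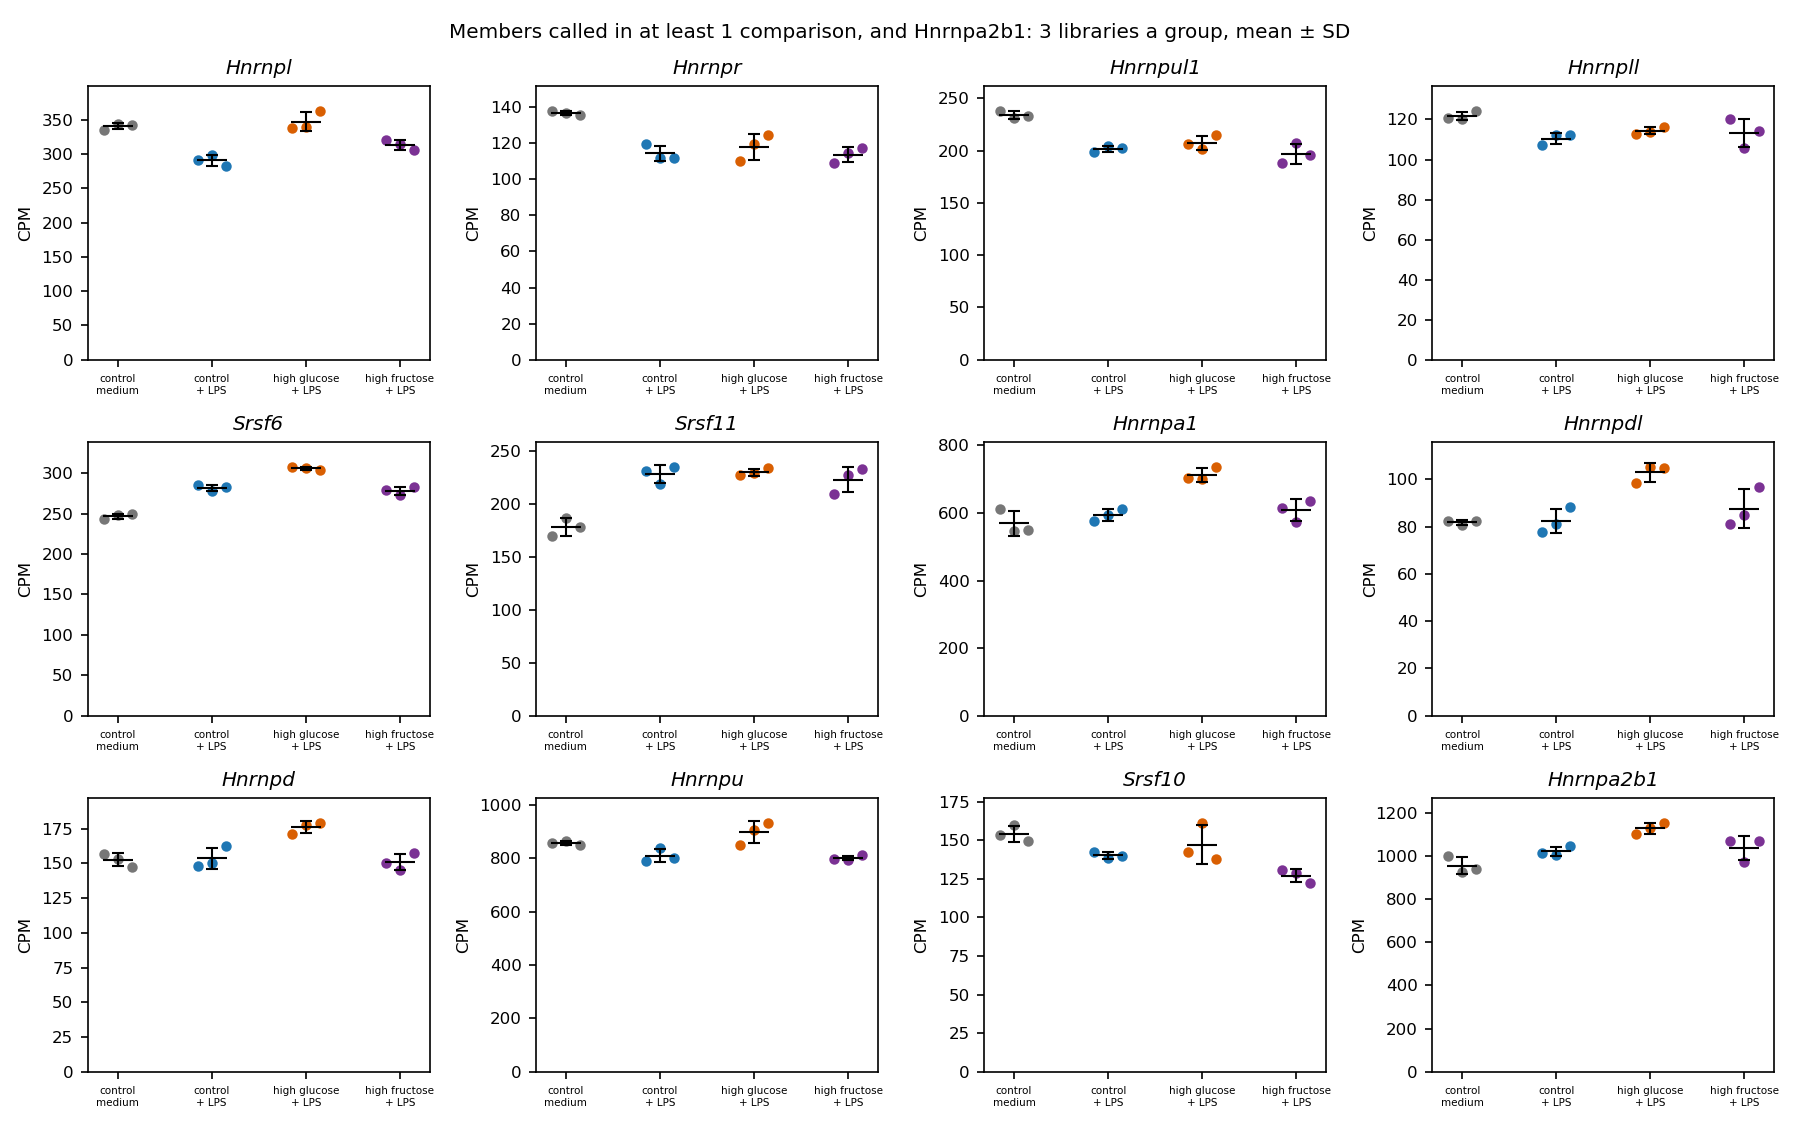
CPM in each library (points) with mean ± SD (bars, n = 3) for the 11 members called in at least 1 comparison, and for Hnrnpa2b1. Hnrnpr, Hnrnpul1, Srsf6 and Srsf11 separate control medium from the groups with LPS, and Hnrnpa1, Hnrnpd and Hnrnpdl are highest in the high-glucose libraries.

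Of the other abundant hnRNPs, Hnrnpa2b1, a paralog of Hnrnpa1, stood at 1001, 924 and 941 CPM in control medium, 1015, 1005 and 1046 with LPS, 1103, 1129 and 1154 with high glucose and LPS, and 1070.4, 972 and 1069 with high fructose and LPS. All 3 high-glucose libraries were above the other 9, but the differences of 0.14 ± 0.044 (SE, adjusted p = 0.14) with high glucose and -0.12 ± 0.044 (SE, adjusted p = 0.166) between the sugars did not pass. Hnrnpc, which binds uridine tracts, had 337, 321 and 334 CPM in control medium, 356, 342 and 333 with LPS, 379, 360.0 and 361 with high glucose and LPS, and 365, 335 and 335 with high fructose and LPS. The largest of its 4 tested differences was 0.093 ± 0.048 (SE, adjusted p = 0.408) with high glucose. Hnrnpk, a binder of C-rich RNA with an uncertain count, had 774, 749.6 and 737 CPM in control medium, 747, 725 and 735 with LPS, 755, 771 and 775 with high glucose and LPS, and 747, 711 and 753 with high fructose and LPS. The 95% interval of its change with LPS was -0.12 to 0.046. Hnrnpm had 398, 355 and 353 CPM in control medium, 392, 389 and 400.0 with LPS, 447, 403 and 421 with high glucose and LPS, and 401, 365 and 390.0 with high fructose and LPS, with a difference of -0.14 ± 0.055 (SE, adjusted p = 0.212) between the sugars. The remaining hnRNPs (Hnrnpa0, Hnrnpab, Hnrnpf, Hnrnph1, Hnrnph2, Hnrnph3 and Hnrnpul2) passed in no comparison, with library levels from 16.1 CPM (Hnrnph3) to 1325 CPM (Hnrnpab).

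Among the SR proteins, Srsf1, the founding member of the family, stood at 414, 414 and 411 CPM in control medium, 403, 402 and 412 with LPS, 411, 438 and 433 with high glucose and LPS, and 401, 403 and 397 with high fructose and LPS. The high-fructose libraries lay below those of high glucose, at -0.094 ± 0.040 (SE, adjusted p = 0.247). Srsf2, which is needed for the inclusion of many exons, had 341, 327 and 346 CPM in control medium, 342, 323 and 329.8 with LPS, 364, 332 and 349 with high glucose and LPS, and 322, 293 and 308 with high fructose and LPS. All 3 high-fructose libraries were the lowest of the 12. Srsf3, which also takes part in mRNA export, had 375, 347 and 357 CPM in control medium, 404, 378 and 382 with LPS, 405, 363 and 382 with high glucose and LPS, and 387, 349 and 377 with high fructose and LPS, and its change with LPS was 0.11 ± 0.053 (SE, adjusted p = 0.144). Srsf5, with an uncertain count, had 109.8, 98.7 and 102 CPM in control medium, 106, 111 and 125 with LPS, 119.7, 126 and 132 with high glucose and LPS, and 117, 112 and 134 with high fructose and LPS, and the largest of its 4 tested differences was 0.14 ± 0.073 (SE, adjusted p = 0.159) with LPS. Srsf7, another export adaptor, had 164, 149 and 149 CPM in control medium, 169.6, 162 and 165 with LPS, 182, 169 and 159.8 with high glucose and LPS, and 158, 127 and 163 with high fructose and LPS. High-fructose library 2 was its lowest, and the difference between the sugars was -0.19 ± 0.078 (SE, adjusted p = 0.222). Srsf4 and Srsf9 passed in no comparison, at 15.2 to 19.6 and 68.0 to 97.9 CPM.

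The Tra2 proteins bind GAA-rich enhancers. Tra2a stood at 90.9, 84.6 and 81.8 CPM in control medium, 96.2, 88.7 and 96.9 with LPS, 96.5, 105 and 94.6 with high glucose and LPS, and 86.9, 97.7 and 90.3 with high fructose and LPS, and Tra2b at 201, 192 and 195 CPM in control medium, 195, 181 and 179.6 with LPS, 184, 191 and 183 with high glucose and LPS, and 177, 177 and 168 with high fructose and LPS. Neither passed: with LPS, Tra2a differed by 0.13 ± 0.062 (SE, adjusted p = 0.127) and Tra2b by -0.083 ± 0.048 (SE, adjusted p = 0.223).

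No CLK kinase passed in any of the 4 comparisons. Clk1 stood at 32.2, 36.2 and 35.8 CPM in control medium, 34.0, 35.0 and 38.9 with LPS, 33.9, 39.4 and 36.1 with high glucose and LPS, and 34.2, 35.2 and 37.3 with high fructose and LPS. Clk2 had 29.9, 25.1 and 27.5 CPM in control medium, 23.4, 23.8 and 26.7 with LPS, 21.8, 23.0 and 23.6 with high glucose and LPS, and 22.7, 25.1 and 23.9 with high fructose and LPS, with the largest of its 4 tested differences -0.16 ± 0.086 (SE, adjusted p = 0.192) with LPS. Clk3, whose exons overlap Edc3, had 38.1, 32.0 and 33.8 CPM in control medium, 35.1, 37.5 and 36.0 with LPS, 38.8, 33.8 and 40.1 with high glucose and LPS, and 35.8, 38.2 and 36.8 with high fructose and LPS. In Clk4, high-glucose library 3 stood apart from the rest, with 16.7, 16.2 and 17.0 CPM in control medium, 17.1, 17.7 and 17.2 with LPS, 16.6, 16.7 and 21.6 with high glucose and LPS, and 14.9, 17.4 and 15.2 with high fructose and LPS. The 95% intervals of the change with LPS were -0.12 to 0.22 for Clk1, -0.11 to 0.23 for Clk3 and -0.16 to 0.28 for Clk4.

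Neither speckle scaffold passed in any of the 4 comparisons. Srrm2 stood at 269, 397 and 355 CPM in control medium, 331, 419 and 438 with LPS, 342, 392 and 416 with high glucose and LPS, and 306, 433 and 406 with high fructose and LPS, and Son at 247, 311 and 297 CPM in control medium, 278, 313 and 333 with LPS, 282, 315 and 339.8 with high glucose and LPS, and 267, 342 and 343 with high fructose and LPS. Library 1 was the lowest of its group in all 4 groups for Srrm2, Son and Clk1, 3 of 38 members, as it was for 5.28% of all tested genes. The change with LPS was 0.22 ± 0.14 (SE, adjusted p = 0.261) for Srrm2 and 0.11 ± 0.10 (SE, adjusted p = 0.456) for Son. Malat1, a nuclear RNA of the speckles, was likewise lowest in library 1 of each group, with 78.8, 141 and 123 CPM in control medium, 89.6, 180.0 and 239 with LPS, 117, 181 and 302 with high glucose and LPS, and 116, 227 and 332 with high fructose and LPS. Malat1 belongs to a list of 6 nuclear-retained RNAs and detained-intron transcripts. Of that list, Ogt was also lowest in library 1 of each group, and Neat1, Mat2a, Kcnq1ot1 and Meg3 were not. What separates library 1 was not tested.

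**Figure D5:**
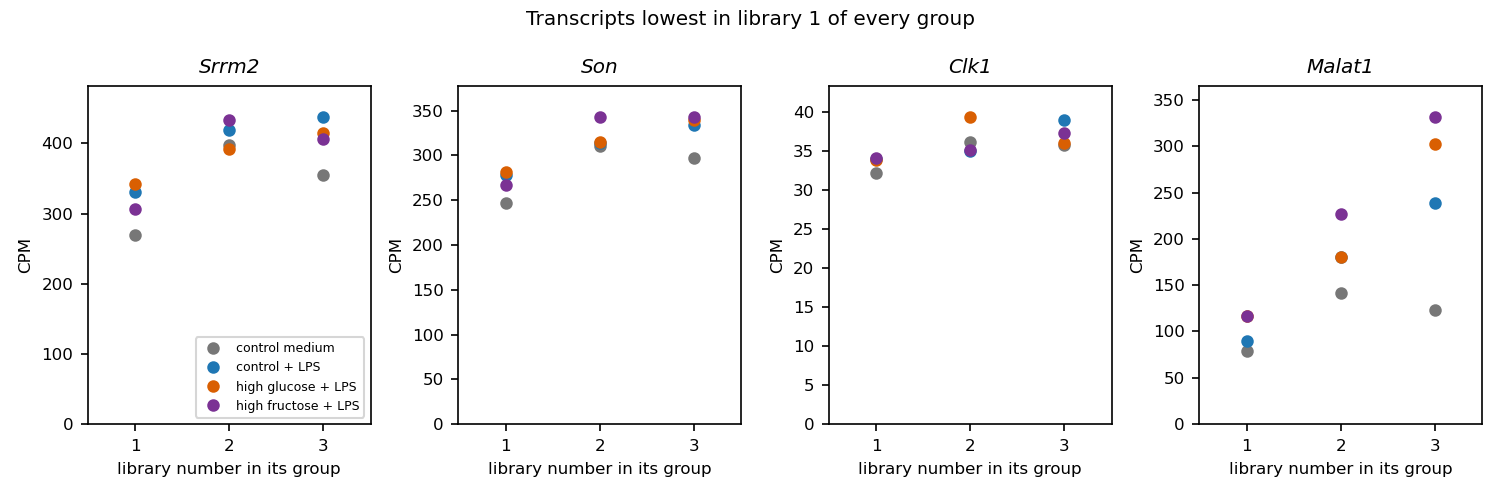
CPM of Srrm2, Son, Clk1 and Malat1 by library number, with 1 colour per group. In each of the 4 groups, library 1 is the lowest; for Srrm2 it lies at 269 to 342 CPM.

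Other genes of the pathway give the setting, in lists grouped by function and chosen with earlier results of these data known. Of 10 kinases, phosphatases and importers of SR proteins, 1 was called with LPS, the importer Tnpo1 at -0.24 ± 0.061 (SE, adjusted p = 0.00662, edgeR), and 0 in the other 3 comparisons. Of 42 other RNA-binding splicing regulators, 7 rose and 3 fell with LPS, 2 rose with high glucose, 0 passed with high fructose, and 4 were lower with high fructose than with high glucose. Tardbp, which encodes TDP-43, rose with LPS by 0.57 ± 0.044 (adjusted p = 1.29e-08, edgeR) and with high glucose by 0.29 ± 0.044 (adjusted p = 0.00227), and was lower with high fructose than with high glucose, at -0.35 ± 0.044 (adjusted p = 9.83e-05). Its libraries held 281, 275 and 269 CPM in control medium, 404, 403 and 414 with LPS, 491, 514 and 486 with high glucose and LPS, and 401, 372 and 398 with high fructose and LPS. With LPS, Mbnl1 fell by 0.63 on the log2 scale (SE 0.067, adjusted p = 7.94e-07, edgeR), and Luc7l rose by 0.43 ± 0.055 (adjusted p = 8.45e-06).

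Of 52 core spliceosome genes, 4 rose and 1 fell with LPS, 1 rose with high glucose (Ddx46, 0.22 ± 0.049, adjusted p = 0.032, edgeR), 0 passed with high fructose, and 1 was lower with high fructose than with high glucose (Sf3a3, -0.18 ± 0.048, adjusted p = 0.0445). Their median was 0.077 with high glucose and -0.10 between the sugars. Of 16 genes of nonsense-mediated decay and the exon junction complex, 4 rose and 1 fell with LPS, 0 passed with high glucose, 1 was lower with high fructose, and 1 was lower with high fructose than with high glucose (Magoh, -0.25 ± 0.065, adjusted p = 0.0414, edgeR). Of 6 nuclear-retained RNAs and detained-intron transcripts, only Ogt, the O-GlcNAc transferase, passed in any of the 4 comparisons. Ogt rose with high glucose by 0.83 ± 0.11 (adjusted p = 0.00063, edgeR) and with high fructose by 0.53 ± 0.11 (adjusted p = 0.00516).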

How the data were processed

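RNA of 12 N9 libraries was analysed, in 4 groups of 3 taken from the labels. The authors deposited raw counts per gene, made with featureCounts 1.5.0-p3 on mm10 per the submitters' processing notes. A second table deposited by the authors holds FPKM, which equalled the count divided by gene length and 1 constant per library. The sources used here do not give the aligner, the annotation release or the strand setting. Members and lists were chosen with earlier results of these data known.

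The test was edgeR's (version 4.0.16, R 4.3.3), with filterByExpr by group, TMM scaling, 1 quasi-likelihood model over all 12 libraries, and Benjamini-Hochberg adjustment over the 12766 genes of each contrast. Full values are given for up to 8 called members a contrast and direction and for 22 members fixed whatever their result; of other lists, up to 4 genes are named by smallest adjusted p. Some genes that this rule names are not reported here. Alternatives were DESeq2 1.42.0, limma 3.58.1 on log2(FPKM + 1) and log2(FPKM + 0.1), other scalings and filters, a replicate block, and each library left out. The model was tested on simulated data. Copies were found by alignment to GENCODE M21 transcripts (98% identity, at least 75 bases). Promoters are from RefSeq.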

Additional observations from a re-analysis of the deposited data

Results flagged for a closer look

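In 4 members the effect of the 2 sugars differed by the direct test of high fructose against high glucose under LPS. The differences on the log2 scale were -0.23 for Hnrnpa1, -0.22 for Hnrnpd, -0.16 for Hnrnpu and -0.21 for Srsf10. All 4 lost their call when only the 6 libraries of the sugar groups were fitted, and without high-fructose library 2. Dixon's test for a library far from its group was not applied.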

How the results depend on the processing

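Of 1792 values of the 28 named members set against alternatives, 73 changed sign, all of them values past the threshold under neither setting. Of the others, 1635 kept both direction and side of the threshold, 42 lost a call and 42 gained one. Hnrnpl, Hnrnpr, Hnrnpul1 and Srsf11 kept their calls with LPS under all 16 alternatives. The causes of the changes below were not tested.

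The count of members called with LPS, 6, was 12 with library totals alone and 10 with only the 2 groups compared. With high glucose, 3 became 6 with DESeq2 and 5 with no filter on low counts, and ranged from 1 to 4 with 1 library left out. With high fructose, 0 became 1 with no filter, and ranged from 0 to 1 with 1 library left out. Between the sugars, 4 became 10 with DESeq2, 8 with no filter, 7 with a mean of at least 50 counts and 0 with only the 2 groups compared, and ranged from 0 to 4 with 1 library left out. Nothing in the labels pairs the replicate numbers, so the main test used no block. Deviations of same-numbered libraries had correlations of -0.19 to 0.12. Between high fructose and control medium under LPS they were 0.066, 0.090 and 0.10. Library 1 also had the smallest mitochondrial share of counts in each group. What the numbers stand for was not tested. With the replicate number as a block, the counts were 11 with LPS, 7 with high glucose, 1 with high fructose and 10 between the sugars. Summing counts with copies elsewhere, chosen after seeing the data, left the 4 counts as they were.

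With LPS and library totals alone, the sign changed for Clk1 (-0.038), Clk3 (-0.026), Clk4 (-0.030), Hnrnpa1 (-0.029), Hnrnpc (-0.035), Hnrnpd (-0.080) and Hnrnpdl (-0.079). With LPS and upper-quartile factors, the sign changed for Hnrnpd (-0.038) and Hnrnpdl (-0.038). With high fructose and library totals alone, the sign changed for Hnrnpc (-7.83e-05) and Hnrnpk (-0.00473). The value of Hnrnpk with high fructose, near 0 in the main test, was -0.00170 with DESeq2, -0.00348 with no filter, -0.00202 with limma on log2(FPKM + 1), -0.00204 with limma on log2(FPKM + 0.1) and -0.012 with counts summed with copies. With LPS, leaving out 1 library gave ranges that cross 0 for Clk1 (-0.00747 to 0.090), Hnrnpd (-0.029 to 0.035) and Hnrnpdl (-0.039 to 0.050). With high glucose, leaving out 1 library gave ranges that cross 0 for Clk1 (-0.041 to 0.078), Clk4 (-0.058 to 0.14), Son (-0.051 to 0.087), Srrm2 (-0.16 to 0.029), Srsf10 (-0.00106 to 0.12), Srsf11 (-0.019 to 0.032), Srsf3 (-0.058 to 0.022), Srsf7 (-0.013 to 0.084) and Tra2b (-0.016 to 0.044). With high fructose, leaving out 1 library gave ranges that cross 0 for Clk1 (-0.059 to 0.039), Clk2 (-0.081 to 0.015), Hnrnpa2b1 (-0.00621 to 0.065), Hnrnpc (-0.041 to 0.030), Hnrnpd (-0.056 to 0.011), Hnrnpk (-0.014 to 0.027), Hnrnpll (-0.012 to 0.084), Hnrnpm (-0.064 to 0.00703), Hnrnpr (-0.034 to 0.018), Hnrnpu (-0.037 to 0.00898), Son (-0.029 to 0.15), Srrm2 (-0.17 to 0.078) and Srsf11 (-0.065 to 0.00590). Between high fructose and high glucose, leaving out 1 library gave ranges that cross 0 for Clk1 (-0.087 to 0.019), Clk3 (-0.10 to 0.022), Hnrnpll (-0.061 to 0.034), Son (-0.044 to 0.13) and Srrm2 (-0.11 to 0.13).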
